A study of Mus musculus with 2 samples.

Results

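Kit+ Msr1- cells were liver sinusoidal endothelial cells (LSECs) that carried RNA of the receptor tyrosine kinase gene Kit and none of the scavenger receptor gene Msr1. A cell was chosen if it held at least 500 UMIs (unique molecular identifiers, 1 per captured RNA molecule) and 200 genes and at least 4 UMIs summed over 7 gate genes of sinusoidal endothelium (Clec4g, Flt4, Kdr, Gpr182, Oit3, Dnase1l3 and Ptprb). It also had to hold at most 3 UMIs of the Kupffer cell genes Clec4f and Cd5l, 0 of Bmp4, Edn1, Fbln2, Adgrg6 and Ednrb from larger vessels, 0 of the lymphocyte genes Cd79a and Cd3e, at least 1 of Kit and 0 of Msr1. There were 923 such cells, 515 in NASH and 408 in control, of 2762 gated cells (1544 in NASH and 1218 in control) and of 7919 cells past the depth limits. Kit lies on chromosome 5, 75574916 to 75656722 (GRCm38, plus strand), and Msr1 on chromosome 8, 39581685 to 39642673 (minus strand). The cells were chosen by their measured UMIs of Kit, Msr1, the gate genes and the excluded genes, so the levels of these genes are given as a description only.

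The NASH group was fed a diet deficient in methionine and choline (MCD) for 6 weeks, and the control group was fed chow. Both groups were male C57BL/6 mice that were 8 weeks old at the start. Liver nonparenchymal cells of 3 mice per group were pooled and captured on a BD Rhapsody cartridge, so there was 1 library for each diet. No test between diets or between classes of cells was therefore possible. All intervals below are 95% exact intervals that cover counting error only, and the spread between mice is unknown.

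LSECs line the hepatic sinusoids without a continuous basement membrane. They take up waste macromolecules through scavenger and lectin receptors and release factors that act on hepatocytes and stellate cells. Their expression follows the lobule: Kit, Cdh13 and the Wnt ligands mark the side of the central vein in mice, and Efnb2, Dll4, Ltbp4 and Msr1 mark the side of the portal tract. Kit binds stem cell factor and is also carried by mast cells and by blood progenitors. Wnt2, Wnt9b, Rspo3 and Stab2 were not analysed here.

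The label was checked against markers that the rule did not use. All 14 such LSEC markers were detected in both libraries, and together they made up 33968 CPM in NASH and 34262 CPM in control (UMIs per 1000000 UMIs of the same cells). Ehd3, Fcgr2b and Maf led the list in both. Among all 923 cells, 71 were low in gate genes. Less than 2% of their UMIs came from the 7 gate genes, against a median of 3.90% and 4.10% in the remaining cells of NASH and control. These were 44 of 515 cells in NASH and 27 of 408 in control. Of them 26 in NASH and 18 in control lay below 1%. They were mixed in depth, from 553 UMIs in NASH and 556 in control upwards. Their median was 5293 UMIs in NASH and 6286 in control, against 1403 and 1584 in the remaining cells. They held 22.7% and 19.7% of all UMIs.

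Summed together, these 71 cells carried leukocyte RNA. The leukocyte gene Ptprc was found in 28 of the 44 in NASH and in 22 of the 27 in control. Cd74, the invariant chain of MHC class II, stood at 14693 CPM in them in NASH and 19998 CPM in control, against 578 and 285 CPM in the other 852 cells. Flt3, a receptor of dendritic cells and progenitors, had 81 of its 82 UMIs in them in NASH and all 98 in control. The endothelial adhesion gene Cdh5 stood at 148 CPM in NASH and 105 CPM in control, against 1453 and 1476 CPM in the others. Gene values between diets are therefore given for the 852 cells at or above 2% (471 in NASH and 381 in control), a limit set after the data were seen, with the ratio over all 923 cells where a gene is called in the 852 cells alone. Counts of listed genes are given for both sets.

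**Figure D1:**
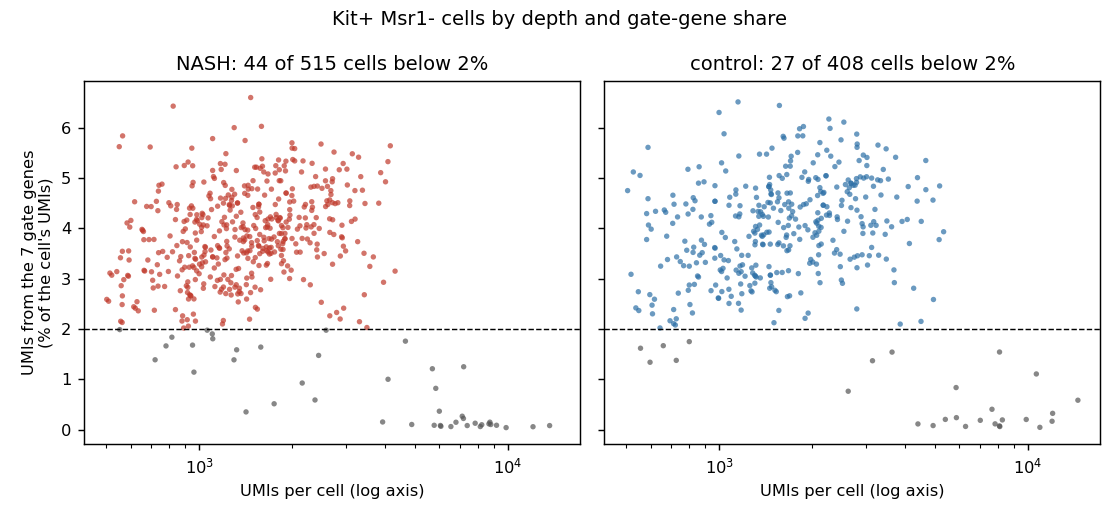
Each point is a Kit+ Msr1- cell, with its UMIs on a log x axis and the percent of them from the 7 gate genes on the y axis, NASH on the left and control on the right. Grey points lie below the dashed line at 2%: 44 of 515 cells in NASH and 27 of 408 in control, many of them the deepest cells of the class.

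In the 852 cells, summed markers of other cell types lay below those of LSECs (42157 CPM in NASH and 41826 CPM in control). The portal or arterial endothelium list was the highest of them. It summed to 2696.5 CPM in NASH and 2049 CPM in control, with a UMI in 90.4% and 86.1% of cells. Central vein endothelium genes summed to 254 and 140 CPM. The mast cell and basophil list summed to 421 and 314 CPM, with a UMI in 40.3% and 39.9% of cells. It had 5 of 7 genes at 0 in both libraries, and its UMIs were mostly of Hdc, a histidine decarboxylase gene, in NASH and in control. The progenitor list had 5 of 10 genes at 0 in NASH and 7 of 10 in control. Kupffer cell genes summed to 1067 CPM in NASH and 832 CPM in control, and hepatocyte genes to 158 and 134 CPM. Plasma cell genes summed to 13.6 CPM in NASH and 141 CPM in control. Free RNA was read from cells that should lack Kit. Kit UMIs were found in 1.14% of B cells in NASH and 0.814% in control (median 1128 and 1135 UMIs). They were found in 2.01% and 1.49% of T cells (median 1540 and 1708 UMIs). In Kupffer cells the shares were 5.48% and 4.07% (median 2105 and 2786 UMIs), against 40.1% and 50.7% of gated cells (median 1306 and 1641 UMIs). Kit was not confined to gated cells. Venous endothelial cells, left out by the rule, held it in 55.7% in NASH and 59.8% in control (median 2468 and 2655 UMIs). Cells with at least 2 Flt3 UMIs and fewer than 4 gate UMIs held it in 34.6% and 18.2%.

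Kit+ Msr1- cells took a like share of all gated cells on both diets, but a smaller share of the Msr1-negative ones in NASH. Of all gated cells they were 33.4% (31.0 to 35.8) in NASH and 33.5% (30.8 to 36.2) in control. With a limit of 2 Kit UMIs in place of 1 they were 15.8% (14.0 to 17.7) in NASH and 21.9% (19.6 to 24.4) in control. With each cell thinned to 1000 UMIs the shares were 35.0% (350 of 1000 cells) in NASH and 32.8% (317 of 966) in control, where the gate was applied again to the thinned counts. This left out 503 gated cells of NASH and 280 of control that held fewer UMIs, a further 160 and 40 deeper cells no longer met the gate, and 119 and 68 cells came to meet it. The neighbouring classes were not alike. Msr1+ Kit- cells made up 18.5% in NASH and 26.3% in control, Kit+ Msr1+ cells 6.74% and 17.2%, and Kit- Msr1- cells 41.4% (639 of 1544 cells) in NASH and a smaller share (280 of 1218 cells) in control. Gated cells with any Kit UMI were 40.1% in NASH and 50.7% in control, and after thinning 39.3% and 41.8%, with intervals that overlapped. Among gated cells without Msr1, which were the larger pool in NASH (1154 cells, against 688 in control), Kit was found in 44.6% (41.7 to 47.5) in NASH and 59.3% (55.5 to 63.0) in control. After thinning it was found in 43.2% (39.7 to 46.6) of such cells in NASH and 52.0% (47.9 to 56.0) in control. Among gated cells with Msr1 the shares with Kit were 26.7% in NASH and 39.6% in control, and after thinning 22.8% and 24.4%, with intervals that overlapped. Of all cells past the depth limits, 13.9% in NASH and 9.69% in control were Kit+ Msr1-, but the gate itself held 41.6% and 28.9%. How many cells of each kind survive digestion cannot be told apart from their number in the liver.

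**Figure D2:**
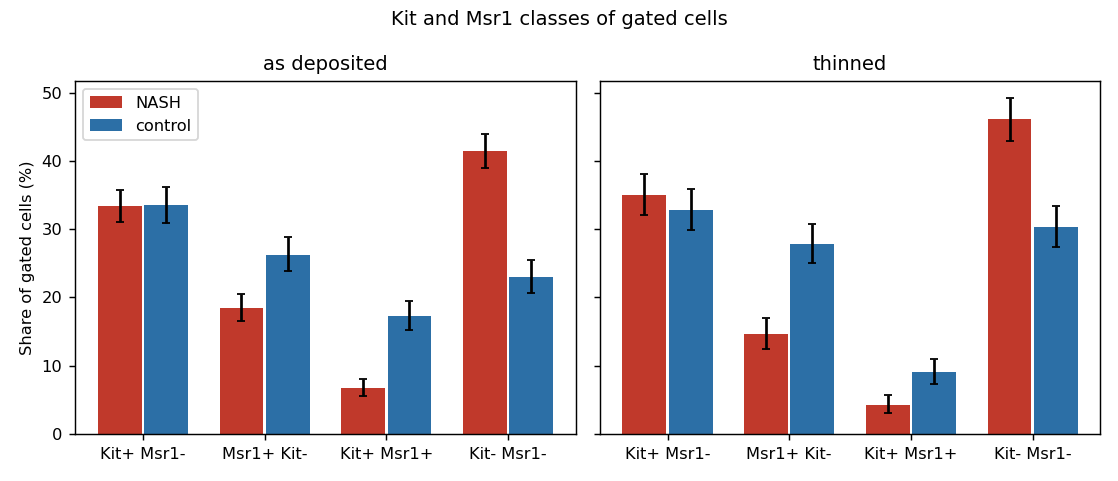
Bars show the percent of gated cells in each of the 4 classes by Kit and Msr1, NASH left of control, as deposited (left) and thinned to 1000 UMIs per cell (right), with 95% exact binomial intervals. Kit+ Msr1- cells stand at 33.4% and 33.5%, while Msr1+ Kit- cells stand at 18.5% and 26.3%.

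Within the class, Kit UMIs were fewer per cell in NASH, where the cells were also shallower (median 1436 UMIs in NASH and 1645 in control). The cells held 1021 Kit UMIs in NASH (1076 CPM) and 1216 in control (1407 CPM). In NASH 271 cells had 1 Kit UMI, 118 had 2 and 126 had 3 or more, up to 12, and in control 141 had 1, 86 had 2 and 181 had 3 or more, up to 15. Just outside the rule, 72 cells in NASH and 84 in control met all limits but held 1 Msr1 UMI, and 5 in each library held 3 gate UMIs. Of the gate genes, Oit3 stood at 2951 CPM in NASH and 2236 CPM in control, and Clec4g, a lectin of LSECs, at 5360 and 6311 CPM. Flt4 and Kdr, the receptors for VEGF-C and VEGF-A, stood at 2019 and 4519 CPM in NASH and at 1765 and 5654 CPM in control.

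The diets were then compared over summed UMIs of the class. Over all 923 cells, 5061 genes had at least 50 UMIs. Of these 284 (5.61%) were at least 1.5 times higher in NASH and 264 (5.22%) at least 1.5 times lower, 10.8% in either direction. Over the 852 cells 4344 genes could be compared, with 236 (5.43%) higher and 247 (5.69%) lower, 11.1% in all. In all, 147 of the higher and 152 of the lower genes were called in both sets. The median log2 ratio was -0.01 in each set. Ratios are log2 of NASH over control with 0.5 UMI added to each sum.

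Several of the extremes over all 923 cells came from few cells. Gpnmb, a glycoprotein of lipid-laden macrophages, had 217 UMIs in NASH and 1 in control, and 149 of the 217 were in 1 cell. Among the 852 cells it had 8 and 1. Il12b (67 UMIs in NASH and 1 in control), the chemokine gene Ccl22 (57 and 4) and the mitotic genes Cenpe (117 and 6) and Cenpf (77 and 7) behaved alike, with 0, 2, 9 and 5 UMIs left in NASH among the 852 cells. On the low side, the granule protease genes Mpo, Elane and Prtn3 had 0 UMIs in NASH and 213, 182 and 165 in control. Their ratios were at least 78.0-fold, 66.6-fold and 60.4-fold lower in NASH against a floor of 3 UMIs, but 213, 182 and 164 of those UMIs lay in 1 cell. Ccl17 (0 UMIs in NASH and 55 in control) and the granzyme gene Gzma (2 and 58) were also absent or near 0 among the 852 cells. Clu, a secreted chaperone, changed direction: its ratio was 1.40 over the 923 cells and -0.96 over the 852, where 78 of 129 UMIs in control were in 1 cell.

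Ctgf, a matricellular growth factor induced by TGF-beta and YAP, had the highest ratio of NASH over control in the list of angiocrine genes. It had 448 UMIs in NASH (611 CPM) and 49 in control (70.7 CPM), a ratio of 3.10 (2.68 to 3.57), and 3.06 over the 923 cells. It was detected in 31.8% of cells in NASH and 8.40% in control. The unnamed gene 8430408G22Rik had 90 UMIs in NASH and 1 in control (5.83, interval 3.90 to 11.73). Hlf, a transcription factor gene that is also on the progenitor list, had 66 and 13 (2.22). 8430408G22Rik and Hlf were low, with a UMI in 10.2% and 9.77% of cells in NASH. Arrdc3, an arrestin domain gene, stood at 191 CPM in NASH and 46.1 CPM in control (2.03). Ctgf, 8430408G22Rik and Hlf were among the 15 highest ratios of the 923 cells. Arrdc3 was picked after its values were seen.

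Cyp26b1, a retinoic acid hydroxylase, had 3914 UMIs in NASH and 1800 in control among the 852 cells, or 5336 and 2595 CPM. The ratio was 1.04 (0.96 to 1.12), and 0.98 over the 923 cells. It was found in 93.0% of cells in NASH and 81.4% in control. Like Camk2n1, a kinase inhibitor gene (665 CPM in NASH and 294 CPM in control, 1.18), it was picked after its values were seen.

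**Figure D3:**
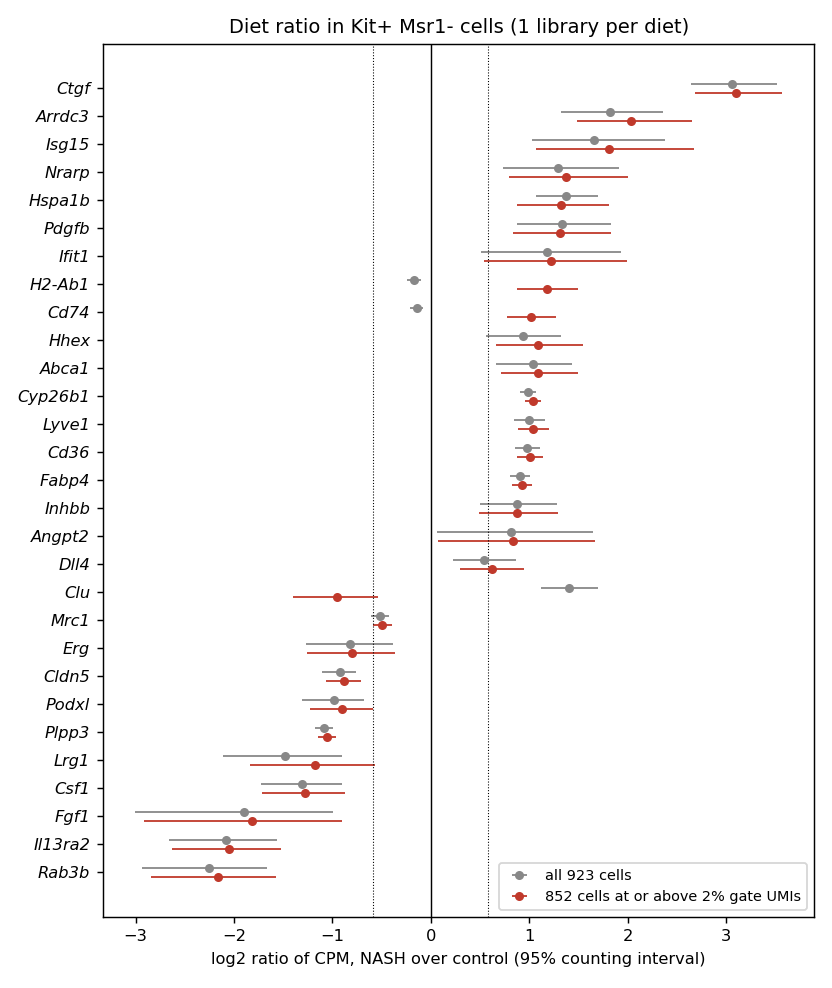
Points are log2 ratios of CPM, NASH over control, for 29 genes in Kit+ Msr1- cells, with 95% counting intervals, grey for all 923 cells and red for the 852 at or above 2%. Dotted lines mark 1.5 times. Most pairs lie together, while Clu, H2-Ab1 and Cd74 lie apart.

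The angiocrine and BMP list holds secreted factors and BMP signalling genes. Of it 5 of 21 tested genes were higher in NASH and 2 lower among the 852 cells, beside 5.43% and 5.69% of all genes. The median was 0.19. Over the 923 cells 6 of 22 were higher and 2 lower. Besides Ctgf, the higher ones included Inhbb, an activin subunit (215 CPM in NASH and 117 CPM in control, 0.88), and Id4, a BMP target (581 and 381 CPM, 0.61). The lower ones were Csf1, the macrophage growth factor (94.1 CPM in NASH and 229 CPM in control, -1.28), and Hgf, the hepatocyte growth factor (49.1 and 80.7 CPM, -0.71). Bmp2, the LSEC signal for hepatocyte hepcidin, was abundant and stood at 2303 CPM in NASH and 2814 CPM in control (-0.29). Fgf1, a growth factor gene among the 15 lowest ratios of the 923 cells, had 12 UMIs in NASH and 41 in control (-1.81).

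Genes of the VEGF and angiopoietin axis were called in 1 direction only. Among the 852 cells 6 of 19 tested genes were higher and 0 lower, beside 5.43% and 5.69% of all genes. In a list of this size 0 lower genes lie near that share. The median was 0.28. Over the 923 cells 5 of 20 were higher and 0 lower, with a median of 0.39. Pdgfb, the ligand that recruits pericytes, stood at 173 CPM in NASH and 69.2 CPM in control (1.31, interval 0.83 to 1.83). Nrarp, a Notch target and inhibitor, stood at 124 and 47.6 CPM (1.37), Adm, adrenomedullin, at 136 and 59.1 CPM (1.20), and the Notch ligand Dll4 at 290 and 189 CPM (0.62, and 0.54 over the 923 cells). Angpt2, the Tie2 antagonist, had only 42 UMIs in NASH and 22 in control (0.84, interval 0.08 to 1.67). The receptors themselves were closer together. Flt1 stood at 1885 CPM in NASH and 1812 CPM in control (0.06), and Nrp1 at 920 and 1288 CPM (-0.48).

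Genes of endothelial identity and endocytosis went both ways. Of 13 tested genes outside the rule, 2 were higher and 2 lower among the 852 cells, beside 5.43% and 5.69% of all genes. Over the 923 cells 4 of 15 were higher and 2 lower. Lyve1, the hyaluronan receptor, stood at 1467 CPM in NASH and 714 CPM in control (1.04, interval 0.88 to 1.20), with a UMI in 55.0% and 41.7% of cells. The fatty acid receptor Cd36 stood at 1963 and 979 CPM (1.00). Dab2, a clathrin adaptor, was lower at 830 CPM in NASH and 1358 CPM in control (-0.71), and so was the complement regulator Cd55 at 1010 and 1561 CPM (-0.63). The mannose receptor Mrc1 stood at 2176 CPM in NASH and 3062 CPM in control (-0.49), inside 1.5 times. Fcgr2b, F8, Maf and Gata4 differed little, with ratios of -0.10, -0.09, -0.08 and -0.03.

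Junction and capillarization genes were called in both directions, in numbers near the shares of all genes. Of 25 tested genes 2 were higher and 2 lower among the 852 cells, beside 5.43% and 5.69% of all genes. The median was 0.07. Over the 923 cells 1 of 26 genes was higher and 3 were lower. Plvap, the diaphragm protein of fenestrae, stood at 900 CPM in NASH and 591 CPM in control (0.61). Its ratio over the 923 cells was 0.53, just inside 1.5 times. The tight junction gene Cldn5 stood at 582 and 1076 CPM (-0.89, interval -1.06 to -0.71) and was found in 46.1% of cells in NASH and 71.4% in control. Podxl, a sialomucin gene of the luminal surface picked after its values were seen, stood at 174 and 327 CPM (-0.90). The basement membrane gene Col4a2 stood at 1108 CPM in NASH and 751 CPM in control (0.56), and the junction genes Cdh5 and Pecam1 had ratios of -0.02 and 0.20.

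Among transcription factor genes, 3 of 29 were higher and 1 lower in the 852 cells, beside 5.43% and 5.69% of all genes. Over the 923 cells 3 of 29 were higher and 2 lower. Hhex stood at 198 CPM in NASH and 92.3 CPM in control (1.09), Foxp1 at 384 and 241 CPM (0.67) and Lhx6 at 146 and 90.8 CPM (0.68, and 0.58 over the 923 cells, just inside 1.5 times). Erg, an ETS factor that maintains endothelial identity, stood at 95.4 CPM in NASH and 167 CPM in control (-0.81, interval -1.26 to -0.37). Of 14 flow response genes 0 were higher and 2 lower over the 923 cells, and in the 852 cells 0 were higher and 1 was lower, Klf4 (81.8 CPM in NASH and 130 CPM in control, -0.66). Klf2, the shear stress factor, stood at 728 and 496 CPM (0.55).

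Of the fatty acid genes 6 of 38 were higher and 1 lower in the 852 cells, where 5.43% of all genes were higher and 5.69% lower. The median was 0.16. Over the 923 cells 6 of 40 were higher and 1 lower. With Cd36, the lipid chaperone Fabp4 stood at 3250 CPM in NASH and 1710 CPM in control (0.93, interval 0.83 to 1.03), and the cholesterol exporter Abca1 at 249 and 117 CPM (1.09). The lower gene was Plpp3, a lipid phosphate phosphatase that degrades lysophosphatidic acid. It had 1407 UMIs in NASH and 2758 in control, or 1918 and 3976 CPM (-1.05, interval -1.15 to -0.96). Pdk4, which inhibits pyruvate dehydrogenase, stood at 189 CPM in NASH and 108 CPM in control (0.80). Of 15 methionine and choline genes 3 were higher and 1 lower, and over the 923 cells 3 of 18 and 1. Mat2a, the enzyme that makes S-adenosylmethionine outside hepatocytes, was 1 of the 3 (241 CPM in NASH and 138 CPM in control, 0.80), and its ratio over the 923 cells was 0.65.

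MHC class II genes had other ratios with and without the 71 cells. Over the 923 cells Cd74 stood at 3784 CPM in NASH and 4177 CPM in control (-0.14) and H2-Ab1 at 3138 and 3533 CPM (-0.17). In the 852 cells Cd74 stood at 578 CPM in NASH and 285 CPM in control (1.02, interval 0.77 to 1.27), H2-Ab1 at 406 and 179 CPM (1.18) and H2-Eb1 at 211 and 95.2 CPM (1.14, and -0.04 over the 923 cells). H2-Ab1 was found in 43.3% of these cells in NASH and 23.4% in control. The antigen presentation list had 4 of 18 genes higher and 1 lower among the 852 cells, beside 5.43% and 5.69% of all genes. Over the 923 cells, however, 0 of 25 were higher and 2 lower. The summed monocyte and macrophage markers stood at 87.2 CPM in NASH and 85.1 CPM in control in the 852 cells. The Kupffer cell markers stood at 1067 and 832 CPM and the dendritic cell markers at 127 and 89.4 CPM. Ptprc, the CD45 gene of all leukocytes, had 64 UMIs in NASH (87.2 CPM) and 24 in control (34.6 CPM) in the same cells, a ratio of 1.32. The part of free leukocyte RNA in these ratios was not tested.

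The interferon response list had 3 of 41 genes higher and 1 lower in the 852 cells, near the 11.1% of all genes called, and its median was 0.00. Over the 923 cells 2 of 42 were higher and 2 lower. Its higher genes were Isg15, a ubiquitin-like modifier (92.7 CPM in NASH and 26.0 CPM in control, 1.81, interval 1.07 to 2.67), Ifit1 (81.8 and 34.6 CPM, 1.22) and the chemokine gene Cxcl9 (423 and 228 CPM, 0.89). Over the 923 cells Cxcl9 stood at 497 CPM in NASH and 398 CPM in control (0.32, interval 0.12 to 0.53), inside 1.5 times. Cxcl10 was the lower one, with a ratio of -1.04 in the 852 cells and -0.22 over the 923. Ackr4, a scavenger receptor for chemokines, stood at 146 CPM in NASH and 261 CPM in control (-0.84). Il13ra2, a decoy receptor for interleukin-13, had 36 UMIs in NASH and 142 in control (-2.05), and Rab3b, a secretory vesicle GTPase, had 27 and 116 (-2.16). Lrg1, a glycoprotein of TGF-beta signalling, had 32 and 69 (-1.18). These last 3 genes were among the 15 lowest ratios over the 923 cells.

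Of the immediate early and dissociation stress genes 6 of 29 were higher in NASH and 1 lower in the 852 cells, beside 5.43% and 5.69% of all genes. The median was 0.30. Over the 923 cells 8 of 35 were higher and 1 lower. The heat shock gene Hspa1b stood at 196 CPM in NASH and 77.9 CPM in control (1.33), Hspb1 at 109 and 49.0 CPM (1.14) and Cebpd at 254 and 108 CPM (1.22). This list moves with digestion of the tissue as well, and since each diet was digested as its own pool, the diet and the handling cannot be told apart. Ddit4, an inhibitor of mTOR, stood at 123 CPM in NASH and 47.6 CPM in control (1.35). The nuclear RNA Neat1 was lower, with a ratio of -0.85.

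The lists of mitophagy, respiration, lysosome and Kit signalling had no more called genes than the 11.1% of all genes called in the 852 cells. The mitophagy and autophagy list had 2 of 42 genes higher and 1 lower, and over the 923 cells 0 of 44 and 1. Pink1, the kinase that starts mitophagy, stood at 198 CPM in NASH and 140 CPM in control (0.50, interval 0.12 to 0.89), inside 1.5 times. Oxidative phosphorylation had 0 of 65 genes higher and 4 lower, with a median of -0.15, and over the 923 cells 0 of 67 and 2. Ndufs3 and Ndufb11, subunits of complex I, were lower with ratios of -1.07 and -0.63, and -1.02 and -0.48 over the 923 cells. Of 52 lysosome genes 0 were higher and 3 lower, among them Hexa (-0.79), and over the 923 cells 1 of 54 was higher and 2 lower. The Kit ligand and adaptor list had 0 of 34 genes higher and 1 lower, the docking adaptor Gab2 (25 UMIs in NASH and 44 in control, -0.88), and over the 923 cells 1 of 38 was higher and 1 lower. The ratio of Gab2, -0.66 over the 923 cells, was 0.049 in those with at least 2 Kit UMIs. Dusp6, the ERK phosphatase, stood at 500 and 352 CPM (0.51). The cell cycle list had 11 of 25 genes higher and 3 lower over the 923 cells, beside 5.61% and 5.22% of all genes. Among the 852 cells 0 of 11 were higher and 1 lower, beside 5.43% and 5.69%.

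Kit+ Msr1- cells were next set against Msr1+ Kit- cells of the same library. Genes were counted if they were at least 1.5 times higher or lower in both libraries. Over all cells 112 of 4359 genes (2.57%) were higher and 66 (1.51%) lower in Kit+ Msr1- cells. By the mean of per-cell CPM the counts were 99 and 92. In cells at or above 2%, 77 of 3484 genes (2.21%) were higher and 46 (1.32%) lower. The lower side over all cells was led by the leukocyte genes Cx3cr1, Cybb and Il1rn and by Lpl. Of the 286 Msr1+ Kit- cells in NASH 65 lay below 2%. The 12 highest over all cells held haemoglobin genes and Flt3, Jaml and Cd24a. In Kit+ Msr1- cells the UMIs of Flt3, Jaml and Cd24a lay mostly in cells below 2%. The median log2 ratio of all genes was 0.12 in NASH and 0.02 in control over all cells, and -0.0022 and 0.016 in cells at or above 2%. Values that follow are for cells at or above 2% unless all cells are named.

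Of 15 tested pericentral genes 6 were higher and 1 lower in Kit+ Msr1- cells, beside 2.21% and 1.32% of all genes. Their median ratio was 0.16 in NASH and 0.70 in control. Of 22 periportal genes 2 were higher and 11 lower, with a median of -0.62 in NASH and -0.97 in control. Over all cells, where 2.57% of all genes were higher and 1.51% lower, the pericentral counts were also 6 and 1 of 15. Of 23 periportal genes, however, 2 were higher and 5 lower, with a median of -0.06 in NASH and -1.10 in control. Both lists share genes with the lists that the study drew from these same libraries for its clusters 0 and 1, so those are no independent evidence. Without the shared genes, 4 of 9 pericentral genes were higher and 1 lower, and 2 of 14 periportal genes were higher and 4 lower. The rule split the classes by Kit and Msr1, which mark opposite sides of the lobule. These counts are therefore a description and no independent evidence of zonation either. Of the study's cluster 0 list itself 2 of 6 genes were higher, and of its cluster 1 list 7 of 8 were lower, but 3 of 8 over all cells.

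Cdh13, T-cadherin, had the largest ratio of the pericentral list. It stood at 913 CPM in Kit+ Msr1- cells of NASH and was higher by 1.77 on the log2 scale than in Msr1+ Kit- cells, and at 789 CPM in control, higher by 2.95. Fabp4 was higher by 1.41 in NASH and 2.03 in control, Lgals1, a galectin, by 1.16 and 1.84, and Ptgs1, cyclooxygenase 1, by 0.95 and 1.59. Cntfr and Mmd of the study's list were higher by 0.68 and 0.91 in NASH and by 0.75 and 1.40 in control. Fabp5 was the exception, with -0.82 in NASH and -0.95 in control.

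Efnb1 and Efnb2, ligands of Eph receptors, were among the 11 lower periportal genes. Efnb2 stood at 120 CPM in Kit+ Msr1- cells of NASH and 98.0 CPM in control, with ratios over Msr1+ Kit- cells of -1.80 and -1.71 on the log2 scale. Efnb1 had ratios of -2.09 in NASH and -1.54 in control, the netrin gene Ntn4 of -1.37 and -1.85, Dll4 of -1.13 and -1.30, and Ltbp4, a TGF-beta binding protein gene, of -0.95 and -1.56. The transcription factor gene Mecom had -1.66 and -2.69. Cd36, not on that list, had -0.66 and -1.50. The tetraspanin gene Cd9 and the secreted Wnt modulator Dkk3 were the 2 periportal genes that were higher, with 1.39 and 1.14 in NASH and 1.22 and 0.78 in control.

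Outside the 2 zonation lists, Lhx6, a homeobox gene of central vein endothelium, had a ratio of 4.08 (2.51 to 7.46) in NASH and 5.08 (3.12 to 10.98) in control, against only 2 and 1 UMIs in Msr1+ Kit- cells. It had 107 UMIs in NASH and 63 in control and was found in 14.2% and 9.45% of Kit+ Msr1- cells. Plppr5 had 2.54 and 5.31 (110 and 74 UMIs, against 7 and 1, with an interval of 3.36 to 11.21 in control), and Plau, urokinase, with 2.15 and 2.86. Plvap was higher by 1.16 in NASH and 2.14 in control and Pdgfb by 0.87 and 1.88. Jup, plakoglobin, had 1.60 and 2.43, Lfng, a Notch glycosyltransferase, 1.82 and 1.90, and Gas6, a ligand of TAM receptors, 1.12 and 1.62. Jup, Lfng and Gas6 were named after their values were seen. The haemoglobin gene Hbb-bs was also among the 12 highest, at 3.00 and 2.19, but it was found in 14.0% of cells in NASH and 2.36% in control, and 1 control cell held 220 of its 272 UMIs.

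**Figure D4:**
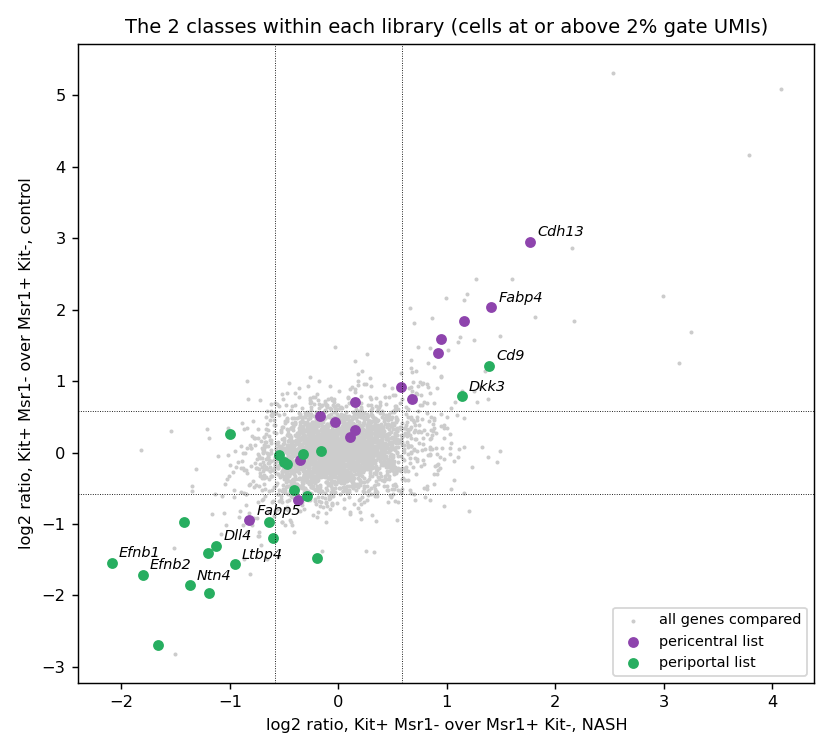
Each point is a gene, with its log2 ratio of Kit+ Msr1- over Msr1+ Kit- cells in NASH on the x axis and in control on the y axis, over cells at or above 2% gate UMIs. Dotted lines mark 1.5 times. Pericentral genes (purple) such as Cdh13 and Fabp4 lie in the upper right and periportal genes (green) such as Efnb2, Ntn4 and Ltbp4 in the lower left, with Cd9 and Dkk3 among the pericentral genes.

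The diet ratio of some zonated genes was not the same in both classes, though the differences were not tested. Plvap had a ratio of NASH over control of 0.61 in Kit+ Msr1- cells and 1.58 in Msr1+ Kit- cells, and Cdh13 had 0.21 and 1.39. Cd36 went the other way with 1.00 and 0.16, as did Ltbp4 with 0.80 and 0.19. Lyve1 had 1.04 and 0.68, and Ctgf 3.10 and 2.52. The ratios of Plpp3 were -1.05 in Kit+ Msr1- cells and -0.74 in Msr1+ Kit- cells.

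Against Kit- Msr1- cells of the same library fewer genes differed. Over all cells 50 of 4373 genes (1.14%) were higher and 108 (2.47%) lower in both libraries, and in cells at or above 2% the counts were 20 of 3493 (0.573%) and 17 (0.487%). The Kit- Msr1- cells at or above 2% were shallower, with medians of 1009 UMIs in NASH and 1073 in control, while the Kit+ Msr1- cells had 1403 and 1584, and the part of this depth in the split by Kit was not tested. In these cells 2 of 15 tested pericentral genes were higher and 0 lower. Of 21 periportal genes 3 were lower and 1, Cd9, was higher. The higher pericentral genes were Cdh13 and Lgals1, by 0.72 and 0.89 in NASH and by 1.43 and 0.61 in control. The lower periportal genes were Efnb2 (-0.77 in NASH and -0.83 in control), Ntn4 (-0.75 and -0.82) and Galnt15, a glycosyltransferase gene (-0.84 and -0.80). Lhx6 had 2.39 in NASH and 2.40 in control.

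Both zonation lists were also read by the number of Kit UMIs after cells were thinned to 1000 UMIs. The pericentral sum was higher at each step of Kit, and the periportal sum lower at each step but the last in NASH. The pericentral list summed to 11434 CPM in NASH cells with 0 Kit UMIs (and 0 of Msr1), 12590 CPM with 1, 13418 CPM with 2 and 14418 CPM (13432 to 15458) with 3 or more. In control the sums were 10031, 11578, 13095 and 14329 CPM. The periportal list summed to 10749, 9600, 8456 and 8927 CPM in NASH and to 13335, 11404, 10365 and 10096 CPM in control. Without the genes of the study's cluster lists the pericentral sums were 9501, 10740, 11317 and 12455 CPM in NASH and 8608, 9880, 11527 and 12671 CPM in control. Kit itself was left out of every sum. At equal Kit UMIs the pericentral sums differed little between diets from 2 UMIs up. The periportal sums stood lower in NASH at each tier, with intervals that overlapped only at 3 or more UMIs. Single abundant genes weigh on both readings. Plpp3 of the periportal list stood at 1820, 1532 and 2073 CPM in NASH with 1, 2 and 3 or more Kit UMIs. In control it stood at 3675, 3757 and 3726 CPM. Fabp4 of the pericentral list was higher in NASH at each tier. Diet differences of the sums without Plpp3 and Fabp4 were not tested.

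Single genes showed the same order in part. Fabp4 stood at 2642, 3355, 3392 and 4018 CPM over the 4 tiers in NASH and at 754, 1205, 1662 and 2521 CPM in control. Cd36 stood at 2461, 2120, 1759 and 1236 CPM in NASH and at 1823, 1145, 1000 and 616 CPM in control. Efnb2 stood at 210, 150, 88.6 and 54.5 CPM in NASH and at 142, 139, 94.6 and 41.1 CPM in control, the last from 3 UMIs in each library. Plpp3 held nearly 1 level over the tiers in control, from 3675 to 3935 CPM, and lay between 1532 and 2186 CPM in NASH. Ctgf stood at 764, 725, 658 and 327 CPM in NASH. In control it stood at 138 CPM with 0 Kit UMIs, 90.4 CPM with 1 and 41.1 CPM with 3 or more, the last from 3 UMIs. Control cells with 2 Kit UMIs held 0 UMIs of Ctgf, with an upper limit of 49.8 CPM.

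**Figure D5:**
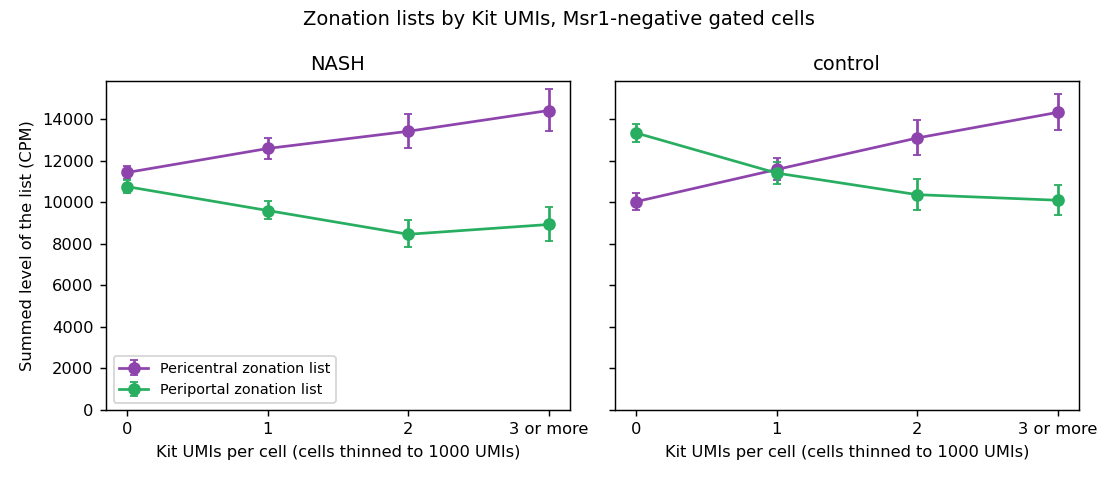
Points are summed CPM of the pericentral (purple) and periportal (green) lists in Msr1-negative gated cells by Kit UMIs per cell, after thinning to 1000 UMIs, NASH on the left and control on the right, with 95% exact Poisson intervals. With 3 or more Kit UMIs the pericentral list stands at 14418 CPM in NASH and 14329 CPM in control, while the periportal list stands at 8927 and 10096 CPM.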

How the data were processed

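Nonparenchymal liver cells of a NASH pool and a control pool were measured on the BD Rhapsody platform, 1 library each (9326723 UMIs in 3893 cells of NASH and 11452972 in 4336 cells of control). A label names another platform than the protocol. The deposited values were raw counts of UMIs per gene and cell, which the authors made with version 1.8 of the BD whole transcriptome pipeline on GRCm38. The 16383 genes analysed ran alphabetically only as far as Rad54l2, so mitochondrial genes were not used and the study's limit on them could not be applied. The NASH table had no header. Its columns were named in the order of the control table, since log2 column totals correlated at 0.973 across genes (0.471 when shifted by 1 column). Both libraries share 21 cell labels.

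Cells with at least 500 UMIs and 200 genes were kept (3710 in NASH and 4209 in control). No doublet caller was run, so doublets remain. UMIs were summed over the cells of a class in a library. CPM had exact Poisson intervals, shares had exact Clopper-Pearson intervals, and log2 ratios used 0.5 UMI added to each sum and exact intervals, all at 95%. Genes with at least 50 UMIs were compared, genes of the rule were left out, and a call was 1.5 times or more. With 1 library per diet no p-value was computed. Computation used Python 3.11.15, numpy 2.4.6, scipy 1.17.1 and matplotlib 3.10.9, and the calls and intervals were tested on simulated data.

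Genes were named by a rule: the 15 highest and 15 lowest diet ratios over all 923 cells, in each list no more than 6 genes of largest ratio along with its defining genes, the 12 highest and 12 lowest ratios against Msr1+ Kit- cells, and the genes that the study lists for its clusters 0 and 1. Exceptions are stated. The members and lists were chosen with earlier results of these data known. Alternatives were other limits on Kit, gate and gene UMIs, thinning to 1000 UMIs, other scaling, and leaving out cells with markers of another class.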

Additional observations from a re-analysis of the deposited data

Results flagged for a closer look

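Of 515 listed or named genes compared, Cxcl9, a T cell chemokine gene induced by interferon, had diet ratios of opposite direction in 2 classes of gated cells at or above 2%. In Kit+ Msr1- cells it had 310 UMIs in NASH and 158 in control (0.89, interval 0.61 to 1.18). In Msr1+ Kit- cells it had 97 UMIs in NASH and 332 in control (-0.83, interval -1.18 to -0.51). It was found in 109 Kit+ Msr1- cells of NASH and 61 of control, and in 53 Msr1+ Kit- cells of NASH and 103 of control. The highest cell held 47 UMIs in Kit+ Msr1- cells of NASH and 25 in control, and 5 and 49 in Msr1+ Kit- cells. Over all cells of each class, without the limit of 2% that was set after the data were seen, the ratios were 0.32 (0.12 to 0.53) in Kit+ Msr1- cells, inside 1.5 times, and -0.91 (-1.13 to -0.70) in Msr1+ Kit- cells. The difference between the classes was not tested, since each class came from 1 library per diet.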

How the results depend on the processing

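No paired analysis was possible because each diet had 1 library. The classes of cells were compared within each library, with no test. Among 118 named genes, 931 of 1073 diet ratios under an alternative stayed inside their counting interval, 138 moved and 4 changed sign. Clu (1.40) became -0.96 with at least 8 gate UMIs, -0.96 at 2% gate share and -0.98 at 1%, and Gab2 (-0.66) became 0.049 in cells with at least 2 Kit UMIs. The share of Kit+ Msr1- cells in NASH (33.4%) became 15.8% with at least 2 Kit UMIs, 36.1% with at least 8 gate UMIs, and 36.2% at 2% and 1% gate share. In control (33.5%) it became 21.9% with at least 2 Kit UMIs and 27.4% without cells that held a marker of another class. The 548 genes called between diets became 258 at a minimum of 100 UMIs, 1138 at 20 UMIs, 316 after thinning and 212 without cells that held a marker of another class, which left 143 cells in NASH and 109 in control. The 178 genes called against Msr1+ Kit- cells became 96 at 100 UMIs, 86 after thinning and 36 without such cells. The 158 called against Kit- Msr1- cells became 39 after thinning, 15 without such cells, 37 at 2% gate share and 41 at 1%. Fewer cells and UMIs enter under most of these settings, and beyond that the cause was not tested. The limits of 2% and 1% and leaving out the top cell of each gene were chosen after seeing the data. Genes after Rad54l2, the spread between mice and losses during digestion could not be measured.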
